A study of Mus musculus with 8 samples.

Results

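The proteasome is represented here by the 49 gene identifiers that start with Psma, Psmb, Psmc, Psmd, Psme, Psmf or Psmg, out of 20388 identifiers in the expression tables. They were taken by name alone. Of them, 48 reached an FPKM (fragments per kilobase of transcript, scaled to the library's depth) of at least 1 in at least 2 libraries and were tested, among 11867 genes tested in all. The exception was Psmb11, a beta subunit known from the thymus, which was listed at 0 to 0.0721 FPKM. One identifier, Psmc3ip, shares only the letters of the name: it encodes a meiotic recombination factor, and is given apart.

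The cells were mouse embryonic stem cells from tatsf1 flox/flox CreERT2 mice, grown on mouse embryonic fibroblasts (MEFs). CreERT2 is a recombinase that tamoxifen activates, and the treatment was meant to delete Htatsf1, the gene of an RNA-binding protein of the splicing machinery. The 4 groups were tamoxifen for 72 h, ethanol (the vehicle) for 72 h, tamoxifen for 48 h and ethanol for 48 h, with 2 libraries of bead-enriched mRNA in each. All groups carry the floxed gene and the recombinase, so no group shows tamoxifen without recombination, and tamoxifen itself cannot be told apart from loss of Htatsf1. Whether a pair of libraries stands for independent cultures is not given, so the p-values rest on a spread between libraries that may be technical only.

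The 26S proteasome degrades proteins tagged with ubiquitin. Its 20S core is a barrel of outer alpha rings, which gate the entry, and inner beta rings, which carry the cutting sites, and the 19S particle on its ends binds the ubiquitin tag, unfolds the protein with a ring of ATPases and threads it inside. Separate proteins help to build it: the chaperones Psmg1 to Psmg4 (PAC1 to PAC4) guide the alpha ring, and Psmd5, Psmd9 and Psmd10 the base of the 19S particle. Alternative caps (Psme1 to Psme4), an inhibitor (Psmf1, or PI31) and beta subunits induced by interferon (Psmb8, Psmb9 and Psmb10) change what the core does.

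Several facts of the libraries bear on every value. Htatsf1 was at 4.12 and 4.63 FPKM in tamoxifen 72 h libraries, against 22.7 and 22.7 FPKM in ethanol 72 h libraries, and at 4.13 and 3.78 FPKM in tamoxifen 48 h libraries, against 23.0 and 21.7 FPKM in ethanol 48 h libraries. Estimated from the confidence bounds of the FPKM values, each library held 8.99 to 16.8 M fragments, with a median over the members of 1573 to 2538, which covers counting error only. Of 26 fibroblast markers, 25 were higher and 0 lower in tamoxifen than in ethanol at 72 h, and 24 and 0 at 48 h. Their summed FPKM was 1634 and 1733 in tamoxifen 72 h libraries, against 856 and 886 in ethanol 72 h libraries, and 1217 and 1209 in tamoxifen 48 h libraries, against 876 and 833 in ethanol 48 h libraries. None of these markers was at 0. Of 13 stem cell markers tested, 8 were lower in tamoxifen at 72 h and 1 at 48 h, and 0 were higher at either time. By the test used below, 20.1% of all genes were higher and 18.5% lower at 72 h, and 7.88% and 4.47% at 48 h. The stem cell marker Sox2 was listed at 0 in all 8 libraries and was not tested. In bulk RNA, fewer cells of a type and less RNA per cell cannot be told apart, and the part of the changed marker levels in the results below was not tested.

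The RNA of all 4 chaperones that build the 20S core was lower in tamoxifen than in ethanol at 72 h. For Psmg2 and Psmg3 this also passed the test at 48 h. Most genes of the core and of the 19S particle did not pass the test at either time. At 72 h, 14 of the 48 members were called in limma on log2(FPKM + 1) at an adjusted p of 0.05, with 3 higher and 11 lower in tamoxifen than in ethanol. The share of all genes called in that comparison was 38.5%, of which 20.1% were higher and 18.5% lower, against 29.2% of the members. Without tamoxifen 72 h replicate 2 the calls were 0 higher and 15 lower. At 48 h, 5 members were called, 1 higher and 4 lower, and 12.4% of all genes were called, with 7.88% higher and 4.47% lower. The 48 h count fell to 2 without tamoxifen 48 h replicate 1, to 1 without tamoxifen 48 h replicate 2, to 3 without ethanol 48 h replicate 1 and to 1 without ethanol 48 h replicate 2, and after quantile normalization the split was 0 higher and 4 lower. Psmg3 was called lower at 48 h in each of these. The median log2 change of the members was -0.06 at 72 h and -0.06 at 48 h, against -0.01 and 0.02 over all genes tested. No member was called in the difference of the changes between the times (limma, 3.45% of all genes called), and 6 had an unadjusted p under 0.05.

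**Figure D1:**
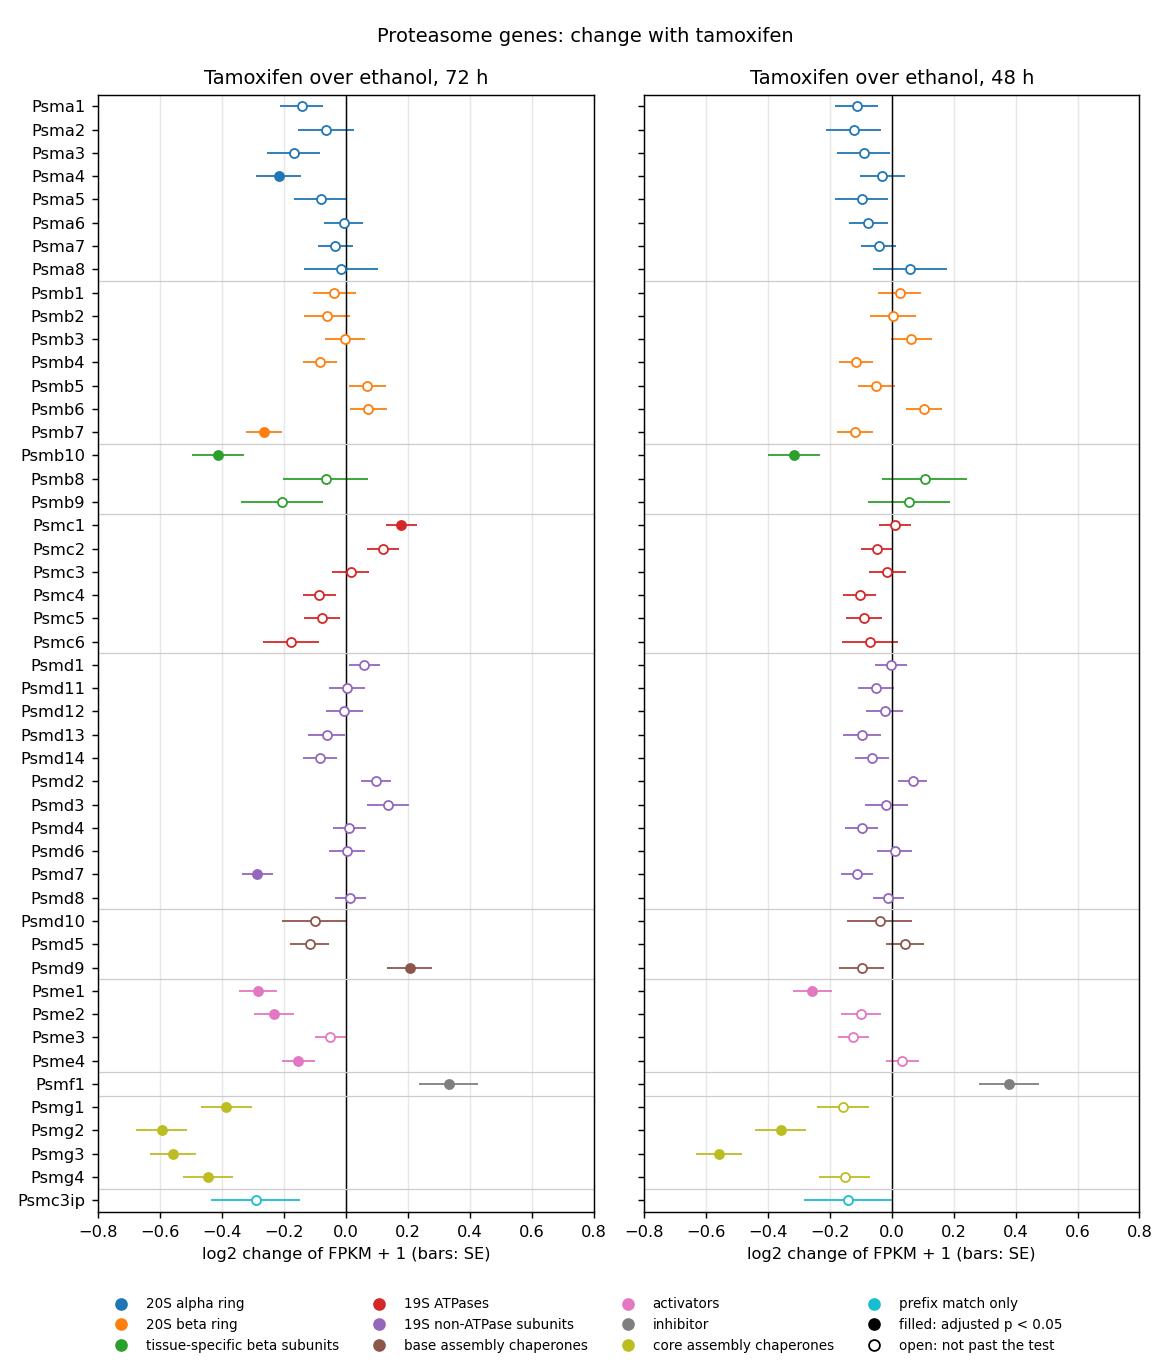
Log2 change of FPKM + 1 in tamoxifen over ethanol for each of the 48 tested members, grouped by role, at 72 h and at 48 h, with bars for the standard error of the limma fit (2 libraries per group) and filled points for members called at an adjusted p of 0.05. The core assembly chaperones Psmg2 and Psmg3 lie lowest at both times, and Psmf1 lies highest at both times.

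The core assembly chaperones act in pairs on the alpha ring: Psmg1 pairs with Psmg2, and Psmg3 with Psmg4. The genome windows around 3 of their starts are printed because these genes were called lower at 72 h, with that of Psmf1, which was called higher. Each window holds 250 bases before and 50 after the start, from RefSeq on GRCm38.p6: Psmg1 at chr16:95990911-95991210 on the minus strand, Psmg3 at chr5:139826845-139827144 on the minus strand, Psmg4 at chr13:34162714-34163013 on the plus strand and Psmf1 at chr2:151741261-151741560 on the minus strand. Capitals mark CCGGAAG, a core of the sites that ETS factors bind.
Psmg1: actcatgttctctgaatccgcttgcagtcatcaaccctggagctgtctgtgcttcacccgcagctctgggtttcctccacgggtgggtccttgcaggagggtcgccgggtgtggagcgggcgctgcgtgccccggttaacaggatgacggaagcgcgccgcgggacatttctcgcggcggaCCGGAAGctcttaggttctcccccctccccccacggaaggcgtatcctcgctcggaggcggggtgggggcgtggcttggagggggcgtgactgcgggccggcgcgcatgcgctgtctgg
Psmg3: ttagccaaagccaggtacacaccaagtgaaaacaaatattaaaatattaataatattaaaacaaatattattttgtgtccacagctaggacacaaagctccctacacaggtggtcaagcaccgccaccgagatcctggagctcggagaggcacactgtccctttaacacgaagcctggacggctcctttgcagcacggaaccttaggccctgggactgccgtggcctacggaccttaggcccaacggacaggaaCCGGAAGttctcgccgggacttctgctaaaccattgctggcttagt
Psmg4: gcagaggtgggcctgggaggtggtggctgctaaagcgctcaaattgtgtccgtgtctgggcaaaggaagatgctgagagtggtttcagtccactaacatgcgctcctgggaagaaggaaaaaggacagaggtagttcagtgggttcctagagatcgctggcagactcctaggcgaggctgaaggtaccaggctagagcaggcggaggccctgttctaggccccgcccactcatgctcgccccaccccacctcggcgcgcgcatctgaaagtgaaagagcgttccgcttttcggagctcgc
Psmf1: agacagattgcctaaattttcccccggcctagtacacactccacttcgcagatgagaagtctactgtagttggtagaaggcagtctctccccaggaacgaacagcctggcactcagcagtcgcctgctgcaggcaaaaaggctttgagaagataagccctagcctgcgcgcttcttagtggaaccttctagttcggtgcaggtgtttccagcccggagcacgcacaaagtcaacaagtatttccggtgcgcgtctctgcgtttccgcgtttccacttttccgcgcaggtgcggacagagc

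RefSeq windows were matched to 41 of the 49 members. CCGGAAG was present on either strand in those of 15 members (36.6%), among them Psmg1 and Psmg3, and in 8.86% of 32851 windows of all genes. Neither Psmg4 nor Psmf1 held it. TGACNNNGC, the core of the antioxidant response element that the proteasome regulator Nfe2l1 is known to bind, was present in 6 members (14.6%), which were Psmb5, Psmb6, Psmc6, Psmd12, Psmd9 and Psme4, and in 12.4% of all windows. The CCAAT box was present in 15 members (36.6%) and in 37.4% of all windows. The 41 members had 44 windows, and a member counts if any of its windows matched. The shares over all genes count single windows, so the 2 kinds of share differ in unit. The motifs were chosen with the expression results known, do not overlap one another in the windows printed, and are descriptions of letters in these windows.

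Psmg3 had the smallest p of the members at both times. It was at 14.0 and 12.5 FPKM in tamoxifen 72 h libraries, against 19.8 and 20.2 FPKM in ethanol 72 h libraries, and at 13.3 and 12.6 FPKM in tamoxifen 48 h libraries, against 18.8 and 20.4 FPKM in ethanol 48 h libraries. The groups did not overlap at either time, and the 4 tamoxifen libraries lay close together. The log2 change was -0.56 ± 0.07 (SE) at 72 h (limma, adjusted p = 0.000294) and -0.56 ± 0.07 at 48 h (limma, adjusted p = 0.00162). The gene lies at chr5:140299548-140302797 on mm9, the build of the expression tables, on which all further positions are given.

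Psmg2 was at 26.5 and 27.2 FPKM in tamoxifen 72 h libraries, against 39.7 and 42.4 FPKM in ethanol 72 h libraries. At 48 h it was at 35.1 and 30.6 FPKM in tamoxifen libraries, against 39.4 and 45.5 FPKM in ethanol libraries. Every tamoxifen library lay below every ethanol library of its time. On the log2 scale the change was -0.60 ± 0.08 at 72 h (limma, adjusted p = 0.000403) and -0.36 ± 0.08 at 48 h (limma, adjusted p = 0.0195). The call at 48 h ended without tamoxifen 48 h replicate 2 (adjusted p = 0.129) or without ethanol 48 h replicate 2 (adjusted p = 0.164). Its partner Psmg1 (chr16:96201542-96212510) was at 39.7 and 35.1 FPKM in tamoxifen 72 h libraries, against 52.4 and 46.0 FPKM in ethanol 72 h libraries, and at 53.3 and 47.6 FPKM in tamoxifen 48 h libraries, against 55.2 and 57.4 FPKM in ethanol 48 h libraries. The ranges were apart at both times, though narrowly at 48 h. The log2 change was -0.39 ± 0.08 at 72 h (limma, adjusted p = 0.00472) and -0.16 ± 0.08 at 48 h, which did not pass the test (adjusted p = 0.248).

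Psmg4 (chr13:34254846-34270041) was at 24.3 and 24.8 FPKM in tamoxifen 72 h libraries, against 32.7 and 34.9 FPKM in ethanol 72 h libraries, and at 27.5 and 22.7 FPKM in tamoxifen 48 h libraries, against 27.9 and 27.9 FPKM in ethanol 48 h libraries. The ethanol 72 h libraries stood above the other 6. On the log2 scale the change was -0.45 ± 0.08 at 72 h (limma, adjusted p = 0.00202) and -0.15 ± 0.08 at 48 h (adjusted p = 0.259), and the difference between the times was -0.29 with an unadjusted p of 0.0294 and an adjusted p of 0.187. The 4 chaperones were thus all called lower at 72 h (median -0.50), and 2 of 4 at 48 h (median -0.26). Of all genes, 18.5% were called lower at 72 h and 4.47% at 48 h. In each of them both tamoxifen libraries lay below both ethanol libraries at both times, which was so for 34.5% of all genes at 72 h and 26.1% at 48 h. Leaving out any 1 of the 8 libraries kept the 72 h calls of Psmg1, Psmg2, Psmg3 and Psmg4.

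**Figure D2:**
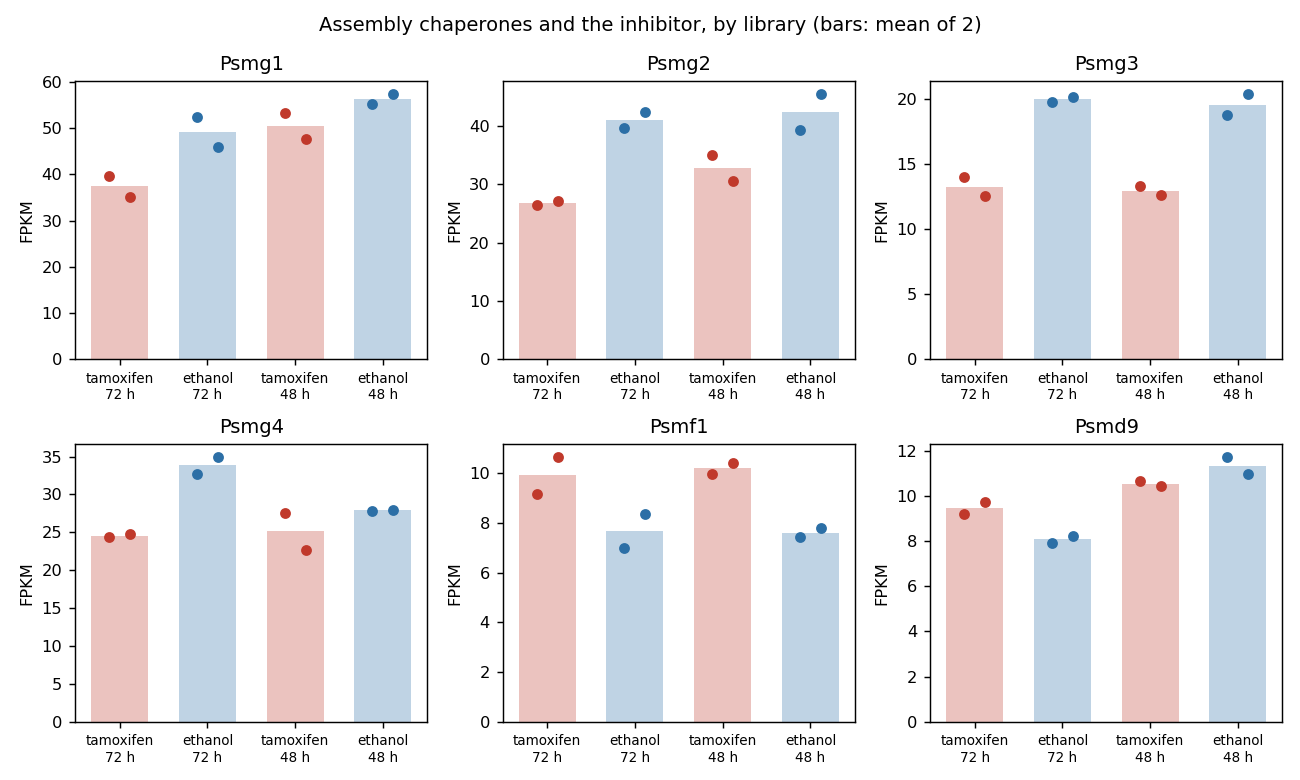
FPKM of the core assembly chaperones Psmg1 to Psmg4, the inhibitor Psmf1 and the base chaperone Psmd9 in each library (points) with the mean of the 2 libraries of a group (bars, from 0), tamoxifen in red and ethanol in blue. The tamoxifen points of Psmg1 to Psmg4 lie below the ethanol points of the same time, and those of Psmf1 above them.

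Summed over the 4 chaperones, the level was 105 and 99.6 FPKM in tamoxifen 72 h libraries, against 145 and 143 FPKM in ethanol 72 h libraries, a ratio of means of 0.709. At 48 h it was 129 and 114 FPKM in tamoxifen libraries, against 141 and 151 FPKM in ethanol libraries, a ratio of 0.830. Set against the summed FPKM of the 14 constitutive core genes that these chaperones help to assemble, the chaperone sum was 4.89% and 4.36% in tamoxifen 72 h libraries and 6.26% and 6.20% in ethanol 72 h libraries. At 48 h it was 4.90% and 4.67% in tamoxifen libraries and 5.43% and 5.74% in ethanol libraries. Pomp, the chaperone of the later beta ring steps, is no member by name. It was at 118 and 132 FPKM in tamoxifen 72 h libraries, against 110 and 121 FPKM in ethanol 72 h libraries, and was not called (log2 0.12 ± 0.08, limma, adjusted p = 0.259).

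Of the 3 chaperones of the 19S base, 1 was called higher at 72 h and 0 were called at 48 h, against 38.5% and 12.4% of all genes called. Psmd9 was at 9.19 and 9.75 FPKM in tamoxifen 72 h libraries, against 7.92 and 8.23 FPKM in ethanol 72 h libraries, and at 10.6 and 10.4 FPKM in tamoxifen 48 h libraries, against 11.7 and 11.0 FPKM in ethanol 48 h libraries. The tamoxifen libraries lay above ethanol at 72 h and below it at 48 h. The log2 change was 0.21 ± 0.07 at 72 h (limma, adjusted p = 0.0448) and -0.10 ± 0.07 at 48 h (adjusted p = 0.417), with a difference of 0.30 that did not pass the test (adjusted p = 0.127). Leaving out any 1 of the 8 libraries ended the 72 h call, with adjusted p from 0.0558 to 0.183, as did median-ratio scaling (0.0635) and quantile normalization (0.0762). Psmd5 and Psmd10 were not called at either time, with log2 changes of -0.12 and -0.10 at 72 h and of 0.04 and -0.04 at 48 h.

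In the 20S core, 2 of the 14 constitutive genes were called lower at 72 h and 0 higher, with a median log2 change of -0.06, and 0 were called at 48 h, where 0 also had an unadjusted p under 0.05 in limma. The 2 were Psmb7 and Psma4. Over all genes, 18.5% were called lower and 20.1% higher at 72 h, and 12.4% were called at 48 h. Psmb7 (chr2:38443566-38499426), which carries the trypsin-like site, was at 180 and 191 FPKM in tamoxifen 72 h libraries, against 222.95 and 222.3 FPKM in ethanol 72 h libraries, and at 256 and 234 FPKM in tamoxifen 48 h libraries, against 266 and 266 FPKM in ethanol 48 h libraries. The groups were apart at both times, with a log2 change of -0.26 ± 0.06 at 72 h (limma, adjusted p = 0.00536) and -0.12 ± 0.06 at 48 h (adjusted p = 0.214). Psma4, a subunit of the alpha ring, was at 122 and 141 FPKM in tamoxifen 72 h libraries, against 149 and 157 FPKM in ethanol 72 h libraries. The tamoxifen libraries lay lower but far from each other. Its log2 change was -0.22 ± 0.07 at 72 h (limma, adjusted p = 0.0357) and -0.03 ± 0.07 at 48 h (adjusted p = 0.820). The 72 h call ended without tamoxifen replicate 1 (adjusted p = 0.230), without ethanol replicate 1 (0.0608) or 2 (0.173) of that time, and without ethanol 48 h replicate 1 (0.0557) or 2 (0.0558).

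The other active sites of the core showed no call. Psmb5, the subunit of the chymotrypsin-like site, was at 215 and 215 FPKM in tamoxifen 72 h libraries, against 200 and 210 FPKM in ethanol 72 h libraries, and at 224 and 202 FPKM in tamoxifen 48 h libraries, against 217.4 and 223.1 FPKM in ethanol 48 h libraries. Its log2 change at 72 h was 0.07 with a 95% interval of -0.06 to 0.20 (limma, adjusted p = 0.391), and at 48 h -0.05 with an interval of -0.18 to 0.08. Psmb6, the subunit of the caspase-like site, was at 178 and 176 FPKM in tamoxifen 72 h libraries, against 178 and 159 FPKM in ethanol 72 h libraries, and at 199 and 202 FPKM in tamoxifen 48 h libraries, against 186 and 187 FPKM in ethanol 48 h libraries. The interval of its log2 change was -0.06 to 0.20 at 72 h and -0.03 to 0.23 at 48 h. RefSeq lists pseudogenes of Psma5, Psmb5, Psmb6 and Psmb7, and whether reads were shared with these copies was not tested, so the levels of these genes are given as uncertain. The 2 tamoxifen 72 h libraries also differed from each other in the core: replicate 1 was lower than replicate 2 in 12 of the 14 genes, with a median log2 difference of -0.12. In the tamoxifen 48 h group replicate 1 was lower in 1 of the 14, with a median of 0.13. The median difference over all genes was -0.003 in tamoxifen 72 h and 0.015 in tamoxifen 48 h. Within each ethanol group replicate 1 was lower in 9 of the 14, with medians of -0.04 at 72 h and -0.02 at 48 h.

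In the 19S particle, 1 of 17 genes was called higher and 1 lower at 72 h, against 20.1% and 18.5% of all genes. The median log2 change of the 17 was 0.00 at 72 h. At 48 h 0 of them were called, against 12.4% of all genes, and 0 had an unadjusted p under 0.05. The one called lower at 72 h, Psmd7 (chr8:110104280-110112382), is the partner of the deubiquitinase Psmd14 in the lid. Psmd7 was at 104 and 103 FPKM in tamoxifen 72 h libraries, against 124 and 129 FPKM in ethanol 72 h libraries, and at 145 and 139 FPKM in tamoxifen 48 h libraries, against 152 and 155 FPKM in ethanol 48 h libraries. The groups did not overlap at either time. On the log2 scale the change was -0.29 ± 0.05 at 72 h (limma, adjusted p = 0.00177) and -0.11 ± 0.05 at 48 h (adjusted p = 0.185). Psmd14, which removes the ubiquitin chain, was at 67.2 and 71.1 FPKM in tamoxifen 72 h libraries, against 72.0 and 74.6 FPKM in ethanol 72 h libraries, and at 102 and 100 FPKM in tamoxifen 48 h libraries, against 103 and 108 FPKM in ethanol 48 h libraries. Its log2 change had a 95% interval of -0.20 to 0.04 at 72 h and of -0.18 to 0.06 at 48 h. The higher one was Psmc1, an ATPase of the base, at 114 and 116 FPKM in tamoxifen 72 h libraries, against 99.9 and 103 FPKM in ethanol 72 h libraries. At 48 h it was at 141 and 139 FPKM in tamoxifen libraries, against 136 and 142 FPKM in ethanol libraries, where the groups overlapped. The log2 change was 0.18 ± 0.05 at 72 h (limma, adjusted p = 0.0177) and 0.01 ± 0.05 at 48 h. The 72 h call ended without tamoxifen replicate 2 (adjusted p = 0.0546) or ethanol replicate 1 (0.0965) of that time.

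Of the 4 genes of other caps, 3 were called lower at 72 h and 1 at 48 h, against 18.5% and 4.47% of all genes. Psme1 and Psme2 are the subunits of the PA28 cap that opens the core for peptides and is induced by interferon gamma. Psme1 (chr14:56197331-56200364) was at 29.7 and 29.5 FPKM in tamoxifen 72 h libraries, against 37.1 and 35.4 FPKM in ethanol 72 h libraries, and at 31.9 and 31.0 FPKM in tamoxifen 48 h libraries, against 36.1 and 39.6 FPKM in ethanol 48 h libraries. The groups were apart at both times, with a log2 change of -0.28 ± 0.06 at 72 h (limma, adjusted p = 0.00498) and -0.26 ± 0.06 at 48 h (limma, adjusted p = 0.0232). The 48 h call ended without tamoxifen replicate 1 (adjusted p = 0.0754) or 2 (0.116) or ethanol replicate 2 (0.184) of that time. Its locus overlaps that of Emc9, whose mean was 2.19 FPKM, and whether counting used strand is not given in the sources used here.

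Psme2, which lies at chr14:56206277-56209938 on the same chromosome, was at 33.1 and 33.9 FPKM in tamoxifen 72 h libraries, against 38.9 and 40.1 FPKM in ethanol 72 h libraries. On the log2 scale the change was -0.23 ± 0.06 (limma, adjusted p = 0.0169), and the call ended without tamoxifen replicate 1 (adjusted p = 0.0685) or ethanol replicate 2 (0.0876) of that time. At 48 h Psme2 was not called (log2 -0.10, adjusted p = 0.347). Psme4, the PA200 cap, was at 70.3 and 68.6 FPKM in tamoxifen 72 h libraries, against 77.4 and 77.3 FPKM in ethanol 72 h libraries. The log2 change of -0.15 ± 0.05 was close to the threshold (limma, adjusted p = 0.0421), and leaving out any 1 of the 8 libraries gave an adjusted p from 0.0561 to 0.126. Psme3, the nuclear PA28 gamma, was not called at either time, with log2 changes of -0.05 at 72 h and -0.12 at 48 h.

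The inhibitor Psmf1 (chr2:151541798-151567029) was the only member called higher at both times. It was at 9.17 and 10.6 FPKM in tamoxifen 72 h libraries, against 6.99 and 8.35 FPKM in ethanol 72 h libraries, and at 9.97 and 10.4 FPKM in tamoxifen 48 h libraries, against 7.42 and 7.79 FPKM in ethanol 48 h libraries. Every tamoxifen library lay above every ethanol library. The log2 change was 0.33 ± 0.10 at 72 h (limma, adjusted p = 0.0205) and 0.38 ± 0.10 at 48 h (limma, adjusted p = 0.0297), and the ratios of mean FPKM were 1.29 and 1.34. The 72 h call ended without tamoxifen replicate 2 (adjusted p = 0.137) or ethanol replicate 1 (0.154) of that time, and the 48 h call ended without any 1 of the 4 libraries of that time, with adjusted p from 0.0850 to 0.150.

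Among the interferon-induced beta subunits, Psmb10 was lower and the other 2 tested were not called. Psmb10 (chr8:108459628-108462292), which takes the place of Psmb7, was at 9.81 and 11.4 FPKM in tamoxifen 72 h libraries, against 14.2 and 14.6 FPKM in ethanol 72 h libraries, and at 21.0 and 19.7 FPKM in tamoxifen 48 h libraries, against 27.0 and 24.1 FPKM in ethanol 48 h libraries. The groups were apart at both times. On the log2 scale the change was -0.41 ± 0.08 at 72 h (limma, adjusted p = 0.00338) and -0.32 ± 0.08 at 48 h (limma, adjusted p = 0.0349). The 48 h call ended without tamoxifen replicate 1 (adjusted p = 0.0777) or 2 (0.163) or ethanol replicate 1 (0.218) or 2 (0.0671) of that time. In the authors' deposited table Psmb10 had a log2 fold change of -0.22 with an adjusted p of 0.181 at 72 h, and of -0.29 with an adjusted p of 0.0277 at 48 h.

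Psmb8, which replaces Psmb5, was at 2.49 and 3.37 FPKM in tamoxifen 72 h libraries, against 2.96 and 3.22 FPKM in ethanol 72 h libraries, and at 2.62 and 1.99 FPKM in tamoxifen 48 h libraries, against 2.28 and 1.85 FPKM in ethanol 48 h libraries. Psmb9, which replaces Psmb6, was at 2.88 and 3.02 FPKM in tamoxifen 72 h libraries, against 3.24 and 3.90 FPKM in ethanol 72 h libraries, and at 1.49 and 1.94 FPKM in tamoxifen 48 h libraries, against 1.90 and 1.34 FPKM in ethanol 48 h libraries. The groups overlapped for both genes except for Psmb9 at 72 h, where tamoxifen was lower. The 95% interval of the log2 change at 72 h was -0.37 to 0.24 for Psmb8 and -0.50 to 0.09 for Psmb9, at 12 to 49 implied fragments per library for Psmb9 and 31 to 61 for Psmb8.

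Between Psmb9 (chr17:34319044-34324275) and Psmb8 (chr17:34335140-34338399) lies Tap1 (chr17:34324501-34334170), the transporter that carries proteasome-cut peptides to class I molecules. Tap1 was at 13.7 and 12.2 FPKM in tamoxifen 72 h libraries, against 5.61 and 4.88 FPKM in ethanol 72 h libraries, and at 5.60 and 4.60 FPKM in tamoxifen 48 h libraries, against 2.56 and 2.21 FPKM in ethanol 48 h libraries. It was called higher at both times, by 1.16 ± 0.11 on the log2 scale at 72 h (limma, adjusted p = 3.37e-05) and 0.85 ± 0.11 at 48 h (adjusted p = 0.00141). Its ends lie 225 bases from Psmb9 and 969 from Psmb8. Of 16 tested genes of antigen processing and interferon signalling outside the proteasome, 8 were called higher and 2 lower at 72 h, and 4 higher and 1 lower at 48 h. Over all genes, 20.1% were called higher and 18.5% lower at 72 h, and 7.88% and 4.47% at 48 h. Among the 16, the smallest p-values at 72 h after Tap1 were those of the class I heavy chain H2-D1 (log2 0.72, limma, adjusted p = 7.41e-05) and its light chain B2m (log2 1.04, limma, adjusted p = 0.000152).

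**Figure D3:**
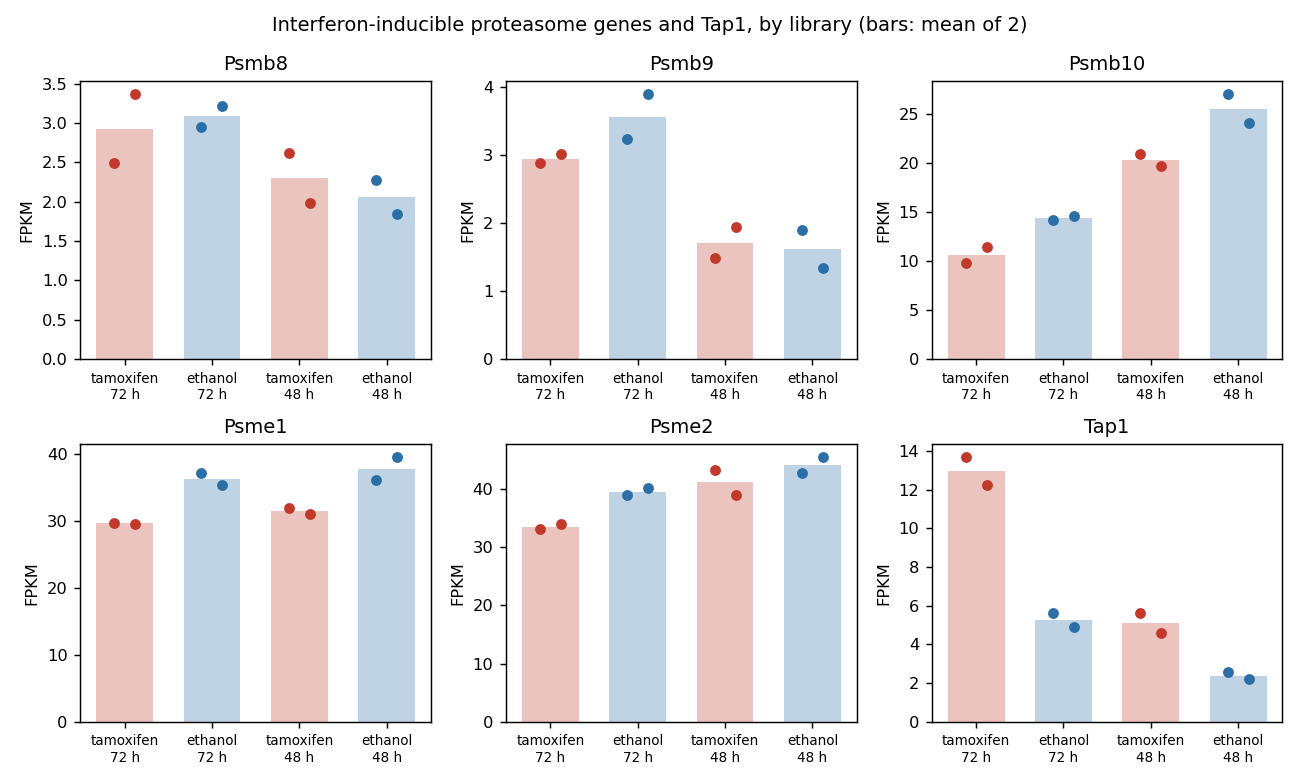
FPKM of Psmb8, Psmb9, Psmb10, Psme1 and Psme2 and of Tap1 in each library (points) with the mean of the 2 libraries of a group (bars, from 0), tamoxifen in red and ethanol in blue. Tap1 is higher in tamoxifen at both times, Psmb10 and Psme1 are lower, and the points of Psmb8 overlap.

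Psmc3ip was at 13.9 and 18.9 FPKM in tamoxifen 72 h libraries, against 19.9 and 20.3 FPKM in ethanol 72 h libraries, and at 15.5 and 11.4 FPKM in tamoxifen 48 h libraries, against 14.8 and 14.8 FPKM in ethanol 48 h libraries. The tamoxifen libraries were far apart, and the gene was not called (limma, adjusted p = 0.133 at 72 h and 0.568 at 48 h). Its locus overlaps that of Mlx, at a mean of 20.2 FPKM. The testis alpha subunit Psma8 was at a mean of 7.42 FPKM over the 8 libraries, against 109 to 215 FPKM for the 7 constitutive alpha genes. It was not called at either time (log2 -0.02 and 0.06).

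Outside the members, 33 tested genes of proteasome assembly, transcription, ubiquitin supply and substrate delivery held 6 called higher and 4 called lower at 72 h, and 1 and 2 at 48 h, where 38.5% and 12.4% of all genes were called, with a median log2 change of 0.05 at 72 h and 0.01 at 48 h. Ublcp1, a phosphatase that acts on nuclear proteasomes, was at 18.3 and 19.3 FPKM in tamoxifen 72 h libraries, against 26.6 and 24.7 FPKM in ethanol 72 h libraries (log2 -0.43 ± 0.07, limma, adjusted p = 0.000675). Nfe2l3, a relative of Nfe2l1, was at 0.774 and 0.960 FPKM in tamoxifen 72 h libraries, against 1.75 and 2.28 FPKM in ethanol 72 h libraries (log2 -0.69 ± 0.15, limma, adjusted p = 0.00485). Nfe2l1, the factor that raises proteasome genes when the proteasome is inhibited, was not called at 72 h (log2 0.10 ± 0.06, limma, adjusted p = 0.195). The 6 genes called higher at 72 h included Nfe2l2 (log2 0.28 ± 0.06, limma, adjusted p = 0.00588) and Ddi2 (log2 0.30 ± 0.09, limma, adjusted p = 0.0228).

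The authors' deposited table of comparisons, which rests on counts, called 2 members higher and 14 lower at 72 h and 1 higher and 7 lower at 48 h, where 32% and 11.9% of all its genes were called. It shared 11 of its 16 calls with the 14 calls made here at 72 h, and 4 of its 8 with the 5 made here at 48 h, each in the same direction. At 72 h, Psmg1, Psmg2, Psmg3, Psmg4 and Psmf1 were among those shared, and Psmb10, Psmc1 and Psmd9 were called here alone. At 48 h Psme1 was called here alone, with an adjusted p of 0.0671 in the authors' deposited table. In the authors' deposited table alone, Psma1, Psma3, Psmc6 and Psmc3ip were called lower and Psmd3 higher at 72 h, and Psmb4, Psmb7, Psme3 and Psmg1 lower at 48 h. These genes were named after their values were seen.

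More members were called between the times than between the treatments. At 72 h relative to 48 h, 31 members were called in tamoxifen, 2 higher and 29 lower, and 31 in ethanol, 6 higher and 25 lower. Over all genes, 57.1% were called in tamoxifen (37.5% higher and 19.6% lower) and 57.2% in ethanol (38% higher and 19.2% lower). The median log2 change of the members was -0.24 in tamoxifen and -0.21 in ethanol, against 0.11 over all genes in each. With each library scaled by its median ratio, the median over all genes went to 0.01 in tamoxifen and -0.00 in ethanol. The members' medians were then -0.36 and -0.34. The calls were 1 higher and 34 lower in tamoxifen and 2 higher and 35 lower in ethanol. Quantile normalization took the median over all genes to -0.01 in each treatment, and moved the members' medians the other way, to -0.19 and -0.14. Its calls were 3 higher and 25 lower in tamoxifen and 5 higher and 20 lower in ethanol. The 48 h and 72 h libraries carry separate sets of barcodes in the labels, and time cannot be told apart from any other difference between these sets. The marker lists also moved over time: of 26 fibroblast markers, 20 were called higher and 1 lower in tamoxifen, and 2 higher and 9 lower in ethanol, and of 13 stem cell markers, 4 higher and 7 lower in tamoxifen, and 6 higher and 5 lower in ethanol. Their part in the changes of the members over time was not tested.

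Genes of the 19S particle fell over time in both treatments. In each of tamoxifen and ethanol, 14 of its 17 genes were called lower at 72 h than at 48 h and 0 higher, including all 6 ATPases in both. The shares of all genes called lower were 19.6% in tamoxifen and 19.2% in ethanol. Psmc4 was at 82.5 and 77.2 FPKM in tamoxifen 72 h libraries, against 121 and 119 FPKM in tamoxifen 48 h libraries, and at 86.0 and 83.5 FPKM in ethanol 72 h libraries, against 130 and 128 FPKM in ethanol 48 h libraries. The 4 libraries of 72 h lay below the 4 of 48 h, with log2 changes of -0.59 ± 0.05 in tamoxifen (limma, adjusted p = 1.43e-05) and -0.60 ± 0.05 in ethanol (limma, adjusted p = 1.00e-05). The changes were -0.55 and -0.56 for the ATPase Psmc5, -0.54 and -0.52 for Psmd14, and -0.49 and -0.48 for the lid subunit Psmd6, each in tamoxifen and in ethanol, all called. Psmd3, Psmd8 and Psmd13 were not called in either.

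In the core, more genes were called lower than higher. In tamoxifen 9 of its 14 constitutive genes were called lower at 72 h and 1 higher, and in ethanol 8 and 1. Of all genes, 19.6% were called lower and 37.5% higher in tamoxifen, and 19.2% and 38% in ethanol. These calls are without rescaling of the libraries, where the median log2 change over all genes was 0.11 in each treatment. Psmb1 was the one called higher in both, at 157 and 176 FPKM in tamoxifen 72 h libraries, against 154 and 136 FPKM in tamoxifen 48 h libraries, and at 169 and 172 FPKM in ethanol 72 h libraries, against 142 and 143 FPKM in ethanol 48 h libraries (log2 0.20 in tamoxifen and 0.26 in ethanol, limma, adjusted p = 0.0353 and 0.00974). The ratio of the summed FPKM of the core to that of the 19S particle was 1.36 and 1.48 in tamoxifen 72 h libraries, 1.49 and 1.46 in ethanol 72 h libraries, 1.36 and 1.29 in tamoxifen 48 h libraries and 1.34 and 1.32 in ethanol 48 h libraries. Tamoxifen 72 h replicate 1 was thus at the level of the 48 h libraries in this ratio.

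**Figure D4:**
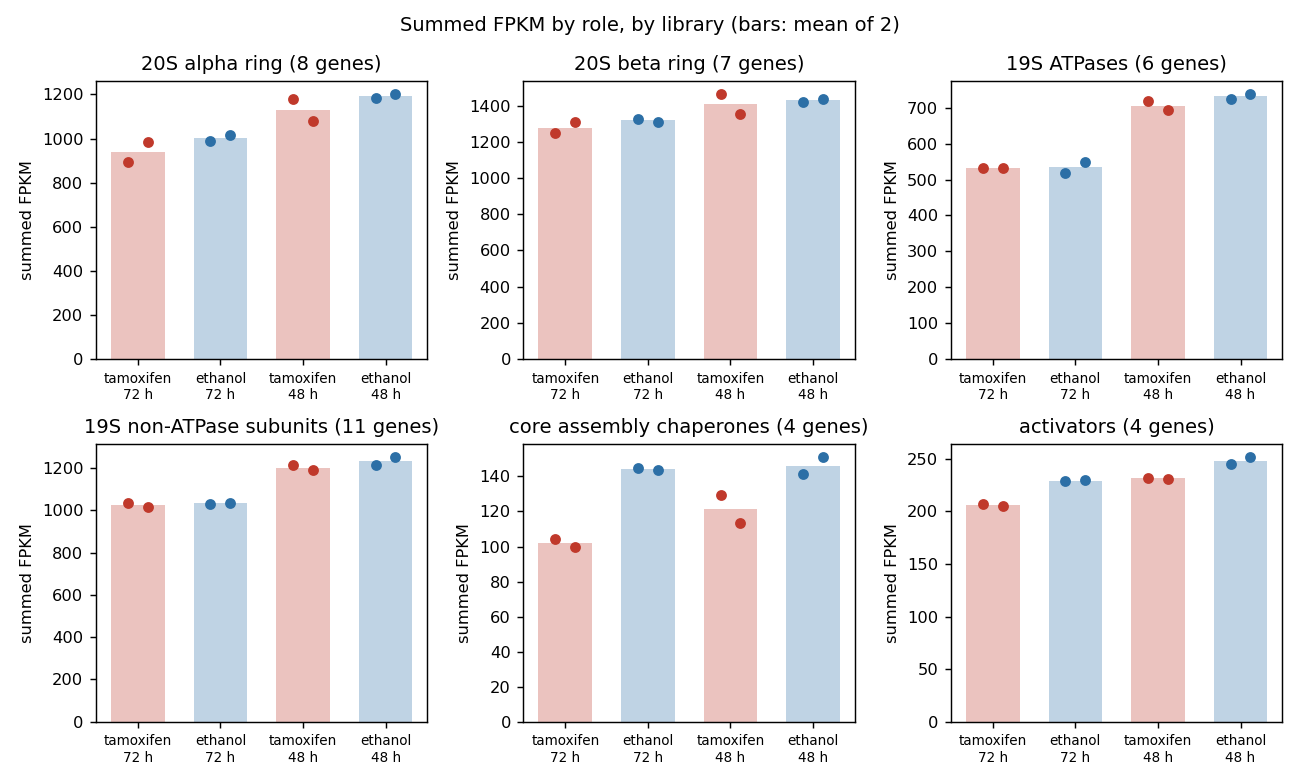
Summed FPKM of the genes of each role in each library (points) with the mean of the 2 libraries of a group (bars, from 0), tamoxifen in red and ethanol in blue, where the alpha ring includes the testis form Psma8. The sums of the 19S ATPases are lower at 72 h than at 48 h in both treatments, while the core assembly chaperones are lower in tamoxifen than in ethanol at both times.

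The interferon-induced subunits Psmb10 and Psmb9 changed in opposite directions over time. Psmb10 was lower at 72 h than at 48 h, by -0.88 ± 0.08 on the log2 scale in tamoxifen (limma, adjusted p = 1.86e-05) and -0.78 ± 0.08 in ethanol (limma, adjusted p = 3.50e-05), while Psmb9 was higher, by 0.55 ± 0.13 in tamoxifen (limma, adjusted p = 0.00552) and 0.81 ± 0.13 in ethanol (limma, adjusted p = 0.000534). Psmb8 was called higher over time in ethanol (log2 0.42, limma, adjusted p = 0.0243) and not in tamoxifen (log2 0.25, adjusted p = 0.149). Among the caps, Psme3 was lower at 72 h, by -0.38 in tamoxifen and -0.45 in ethanol, and Psme4 was higher in ethanol (log2 0.31, limma, adjusted p = 0.000655) and not called in tamoxifen (log2 0.12, adjusted p = 0.0689). Among the core assembly chaperones, Psmg3 was not called over time, with log2 changes of 0.03 in each treatment, and Psmg4 was called higher in ethanol (log2 0.27, limma, adjusted p = 0.0171) and was at -0.02 in tamoxifen. Psmg1 and Psmg2 were called lower over time in tamoxifen (log2 -0.42 and -0.28, limma, adjusted p = 0.00167 and 0.0156) and not in ethanol (log2 -0.19 and -0.04). That these changes over time differ between the treatments is the same contrast as the difference of the tamoxifen changes between the times, in which no member was called.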

How the data were processed

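mRNA of 8 libraries was sequenced as 100-base paired ends, per the labels' protocols, and the labels gave the groups and replicate numbers. The deposited tables give FPKM per gene with confidence bounds. The submitters' processing notes name BWA 0.6.1, TopHat 1.4.1, Cufflinks 1.3.0, HTSeq, DESeq and build mm9, without their roles. The authors' comparison tables hold group means, a signal made of counts over size factors, with a fold ratio, its log2 fold change, p-values and adjusted p-values, per the file headers; the log2 sign was turned to tamoxifen over ethanol.

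Entries whose status was not OK were dropped, and each identifier kept its entry of highest mean. One limma fit (limma 3.58.1, R 4.3.3) on log2(FPKM + 1) over all 8 libraries, with a mean per group and a trended variance, tested the 11867 genes that reached 1 FPKM in 2 or more libraries. Its two-sided p-values were adjusted over all these genes (Benjamini-Hochberg) and called at 0.05. Fold changes on this scale understate the change of low genes. Depth was estimated from the confidence bounds, since the tables hold no counts. The fit was tested on simulated data. File starts count from 0, and 1 was added. Alternatives varied the pseudocount, filter, scaling, variance model, libraries and replicate block.

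The members and lists were chosen with earlier results of these data known. Values per library are given for the members called at either time, up to the 8 of smallest p each, the member of smallest p in each role, the interferon-induced beta subunits and their constitutive counterparts, Psmd14, Psmb5, Psmg1 and Htatsf1, and the 3 of smallest p at 72 h from each outside list, of which 1 is not reported here. Others were added after their values were seen.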

Additional observations from a re-analysis of the deposited data

How the results depend on the processing

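The count of members called in tamoxifen against ethanol at 48 h was 5, and went to 2 with no filter on low values, where more genes were tested, and to 3 without a variance trend, where the cause was not tested. Over single libraries left out it ran from 1 to 5, at 72 h from 10 to 15, over time in tamoxifen from 25 to 31 and in ethanol from 25 to 32. In the difference of the changes it was 0 throughout. The other counts stayed within 1.5 times the reported ones under every alternative run. Deviations of same-numbered libraries correlated at -0.0615 at 72 h and 0.00240 at 48 h, so no shared effect of the number was seen. With 2 libraries a group, this cannot show whether same-numbered libraries came from the same culture or preparation. With the replicate block the counts were 13 at 72 h, 5 at 48 h, 32 over time in tamoxifen, 34 over time in ethanol and 0 for the difference. The block ended the 72 h calls of Psmd9 (adjusted p = 0.0539) and Psme4 (0.0569). Calls at 72 h also ended with no filter for Psma4 (0.0716) and Psmd9 (0.0565), without a trend for Psma4 (0.0777), Psmc1 (0.0533) and Psme4 (0.0920), with only the libraries compared for Psma4 (0.0685), Psmc1 (0.0550), Psmd9 (0.0807) and Psme4 (0.0886), with quantile normalization for Psme4 (0.0850) and with a pseudocount of 5 for Psmd9 (0.0501). At 48 h they ended with no filter for Psmb10 (0.0785), Psmf1 (0.0766) and Psmg2 (0.0585), without a trend for Psmb10 (0.0609) and Psme1 (0.0536), and with quantile normalization for Psmf1 (0.0612).

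For named genes, 14 settings turned the sign, all of log2 changes that were not called, and the cause was not tested. At 48 h, quantile normalization gave 0.00961 for Psma4 and -0.0169 for Psmb9, and median-ratio scaling -0.0228 for Psmc1. The others left out 1 library. Over such settings the 48 h change ran from -0.0711 to 0.00995 for Psma4, from -0.123 to 0.0219 for Psmb5, from -0.0327 to 0.245 for Psmb8, from -0.0983 to 0.209 for Psmb9, from -0.0199 to 0.0410 for Psmc1, from -0.351 to 0.0703 for Psmc3ip and from -0.00800 to 0.0760 for Psme4. The 72 h change ran from -0.00681 to 0.152 for Psmb6 and from -0.227 to 0.0955 for Psmb8. With 2 libraries a group, a change that was not called is not shown to be absent.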
